A study of Mus musculus with 4 samples.

Results

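Glutathione synthesis and recycling was followed through 7 genes, *Slc7a11*, *Gclc*, *Gclm*, *Gss*, *Gsr*, *Glrx* and *Ggt1*. Every non-control probe that carries 1 of these gene names on the array was taken, which gave 8 of 39429 probes and 7 of 30175 gene names. *Gsr* has 2 probes and each of the others has 1. No other probe of the array matched the 7 genes by a synonym or by a RefSeq accession.

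The arrays carried RNA of NIH-3T3:Per2-Luc, a mouse fibroblast line with a luciferase reporter driven by the *Per2* promoter. In 3 of the 4 conditions, cells were cOS-pulsed (critical oxidative stress, 5 mM H2O2 for 10 min) and collected 4 h, 20 h or 32 h later. In the control, 0 mM H2O2, the medium was exchanged for fresh medium, and the label places it at 4 h. Each condition was measured on 1 array, so the differences have no replicate check and no test was run. The 20 h and 32 h arrays were compared with the same control, so hours in culture and the pulse cannot be told apart there, and the 3 comparisons share that array.

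Glutathione is a tripeptide of glutamate, cysteine and glycine and the main small thiol of animal cells. Cystine enters through the antiporter system xc-, whose light chain is SLC7A11, and is reduced to cysteine in the cell. Glutamate-cysteine ligase, made of the catalytic subunit GCLC and the modifier subunit GCLM, carries out the rate-limiting step, and glutathione synthetase (GSS) adds glycine. Peroxidases oxidize glutathione to its disulfide while they reduce peroxides, glutathione reductase (GSR) restores it with NADPH, glutaredoxin (GLRX) uses it to reduce mixed disulfides of proteins, and gamma-glutamyltransferase (GGT1) cleaves it outside the cell. The transcription factors NRF2 (*Nfe2l2*), with small MAF partners, and ATF4 are known to drive several of these genes.

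The values below rest on the probes that follow, given 5′ to 3′ in lower case with their mm9 positions from the array annotation. 3 of them, for *Gclm*, *Gss* and *Ggt1*, span more of the genome than their 60 bases, so they cross an intron, and are printed whole. The others lie in 1 unbroken stretch and are shown by their first 30 bases. Which exon or untranslated region each lies in was not determined.
Slc7a11, A_52_P368057, chr3:50169700-50169759: agtaatgtatcaggagctttatgtaaatgt
Gclc, A_51_P365019, chr9:77641296-77641355: agtgaactggcttgtacattttgaattctt
Gclm, A_51_P320089, chr3:121962174-121964809: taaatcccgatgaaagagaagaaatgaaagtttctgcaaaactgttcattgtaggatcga
Gss, A_52_P358860, chr2:155389432-155390531: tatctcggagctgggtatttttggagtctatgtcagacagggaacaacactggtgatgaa
Gsr, A_55_P2103055, chr8:34808413-34808472: taaagttagacttgaggctggttaggtaaa
Gsr, A_55_P1966982, chr8:34808488-34808547: agccctttcttcttctgagtattcctggtt
Glrx, A_51_P210395, chr13:75986983-75987042: tgttgctggttttctgctactgttcgtcag
Ggt1, A_51_P468073, chr10:75048435-75048670: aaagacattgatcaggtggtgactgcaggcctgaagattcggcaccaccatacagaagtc

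The arrays detected between 52.7% and 59.1% of the probes, the highest share at 4 h, and no spot was saturated. Signals are given below as processed by the scanner software, in its own units. For ratios, the log2 signal was set against the 75th percentile of the array. The error after each log2 ratio (±) comes from the spot errors that the scanner software gives, combined over both arrays, and leaves out the spread between cultures and labelings. A gap between arrays is called larger than the spot error where it exceeds this value. All 8 fibroblast markers, *Col1a1*, *Col1a2*, *Col3a1*, *Vim*, *Fn1*, *Pdgfrb*, *Thy1* and *S100a4*, were detected on every array, with a summed signal of 787257 at 4 h to 1.13e+06 at 20 h. Of the markers of other cell types, the leukocyte gene *Ptprc* was not detected on any array and 1 of 4 epithelial genes (*Krt8*) was. *Kdr* and *Pecam1* (endothelial), *Cd68* and *Aif1* (leukocyte) and *Tubb3* and *Snap25* (neuronal) were detected on all 4. *Cdh5* (endothelial) was detected on all but the 32 h array, and *Rbfox3* (neuronal) at 20 h alone. The summed signal of the 3 leukocyte markers, before scaling, was 647 in the control, 1781 at 4 h, 1068 at 20 h and 1071 at 32 h. The sum at 4 h came mostly from 1 *Cd68* probe, at 440, 1531, 636 and 602 in the same order. *Aif1* was at 180, 173, 370 and 419. In the same order the sums were 17023, 20601, 11309 and 10632 for the neuronal markers and 3572, 3926, 5880 and 5172 for the endothelial ones. For the epithelial markers they were 711, 1277, 1124 and 960. The neuronal sum came mostly from *Snap25*, at 16756 in the control and 10245 at 32 h. The *S100a4* probes were the brightest of the fibroblast sum, at 283680 and 313547 in the control. The part of these markers in the ratios was not tested.

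**Figure D1:**
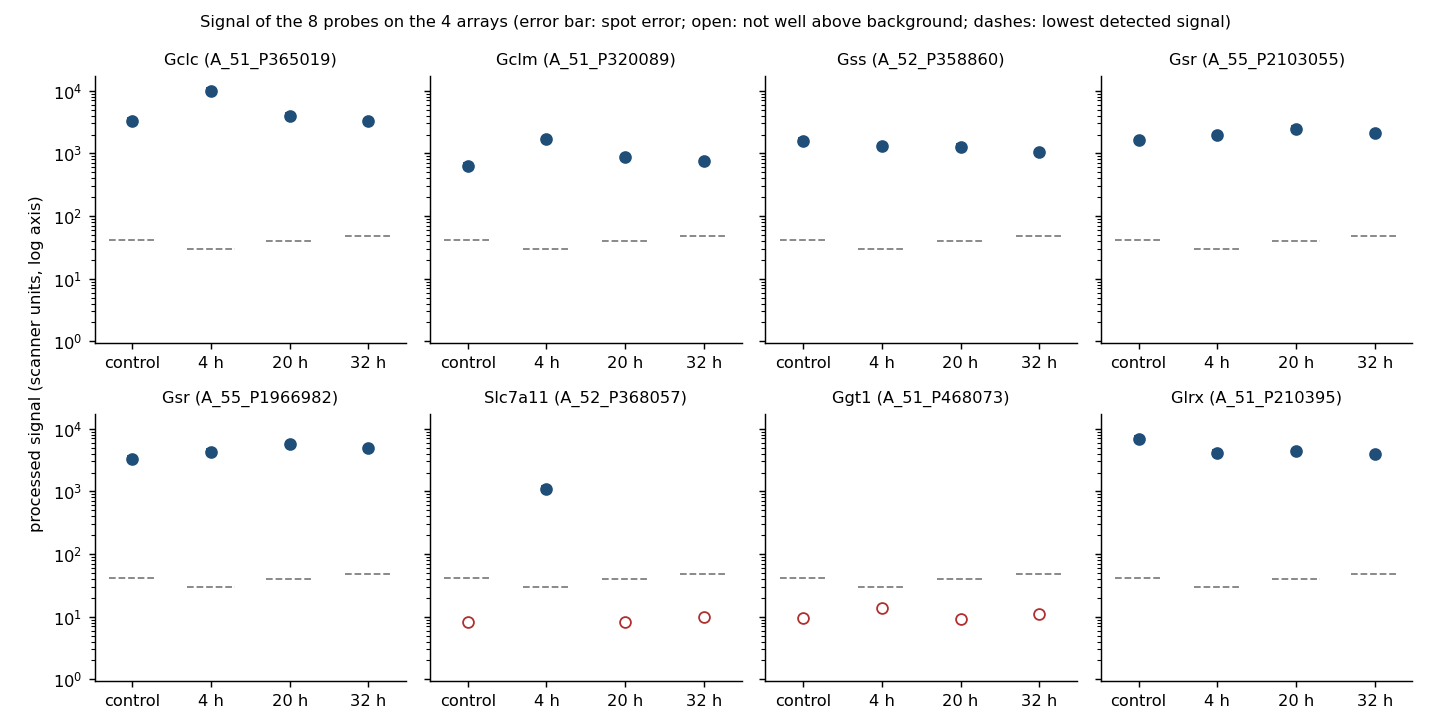
Processed signal (log axis, scanner units) of the 8 probes on the control, 4 h, 20 h and 32 h arrays. Filled points are well above background, with the spot error as a bar that is often smaller than the point, open points are not, and dashes mark the lowest detected signal of each array. *Slc7a11* is filled at 4 h alone (signal 1091), *Gclc* and *Gclm* peak at 4 h, and *Ggt1* is open on all arrays.

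*Slc7a11*, the cystine transporter, was the 1 gene of the set that was detected at 4 h alone, by its 1 probe. In the array annotation that probe starts at base 8325 of its transcript, and those of the other members at base 635 to 2525. The values are of that stretch only, and other parts of the transcript were not measured. The signal of the *Slc7a11* probe was 8.16 in the control, 1091 at 4 h, 8.20 at 20 h and 9.77 at 32 h. Only the 4 h array measured it well above background, and there the signal was 36.7 times the lowest detected signal. The raw spot means, before background subtraction, were 89.2, 1335, 89.0 and 83.1 in the same order, so the 3 dim spots lay together. Against the lowest detected signal of the control array, the level at 4 h was at least 32.4-fold higher (a bound of 5.02 on the log2 scale). With 5 other scalings of the arrays the bound ran from 24.6-fold to 30.6-fold, and with another background correction (normexp) it was 3.81 on the log2 scale. By 20 h the level was at least 41.3-fold lower than at 4 h, and at 32 h at least 31.7-fold lower. No ratio was taken between the control, 20 h and 32 h, which have only an upper limit.

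*Gclc* and *Gclm*, the subunits of glutamate-cysteine ligase, were both raised more than 3-fold at 4 h and were back near the control at 20 h and 32 h. *Gclc* had a signal of 3297 in the control, 10054 at 4 h, 3962 at 20 h and 3236 at 32 h. The 4 h array stood alone, and the other 3 lay close together. The log2 ratio over the control was 1.89 ± 0.20 at 4 h (3.70-fold higher), -0.067 ± 0.20 at 20 h and -0.21 ± 0.20 at 32 h. At 4 h, 98.5% of the 20392 probes measured on both arrays had a lower ratio. The small gap at 20 h was within the spot error and turned positive with median, spike-in or no scaling. In the order of scaled levels (4 h, control, 20 h, 32 h), only the step from 4 h to the control exceeded the spot error.

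*Gclm* gave 634 in the control, 1675 at 4 h, 867 at 20 h and 750 at 32 h. Again the 4 h array was the high one. The log2 ratio was 1.68 ± 0.21 at 4 h (3.21-fold higher), 0.12 ± 0.21 at 20 h and 0.065 ± 0.21 at 32 h, and 97.9% of the measured probes lay lower at 4 h. From 4 h to 20 h the level of *Gclm* fell by 1.56 ± 0.20 on the log2 scale, and that of *Gclc* fell by 1.96 ± 0.20. With the 5 other scalings the ratio at 4 h ran from 1.49 to 1.77 for *Gclc* and from 1.28 to 1.68 for *Gclm*, past 2-fold in each. The 2 subunits differed at 4 h by about the spot error of 1 ratio.

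*Gss*, glutathione synthetase, which completes the tripeptide, did not share the 4 h rise. Its signal was 1574 in the control, 1290 at 4 h, 1281 at 20 h and 1034 at 32 h, highest in the control and lowest at 32 h. After scaling, the log2 ratio over the control was -0.0064 ± 0.20 at 4 h, -0.63 ± 0.20 at 20 h (1.55-fold lower) and -0.78 ± 0.21 at 32 h (1.72-fold lower). Both late gaps exceeded the spot error, and neither reached 2-fold. At 32 h, 2.69% of the 19969 measured probes had a ratio below that of *Gss*. The value at 4 h was between -0.41 and -0.019 with the other scalings, and the value at 32 h between -0.79 and -0.61.

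*Gsr*, glutathione reductase, was modestly higher on all 3 pulsed arrays by both of its probes, which lie side by side in the gene. Probe A_55_P2103055 gave 1622 in the control, 1956 at 4 h, 2493 at 20 h and 2101 at 32 h. Probe A_55_P1966982 gave 3314, 4302, 5605 and 4875. The control was the lowest array for each probe, before and after scaling. The log2 ratios over the control were 0.55 ± 0.20, 0.29 ± 0.20 and 0.19 ± 0.20 at 4 h, 20 h and 32 h for the first probe. They were 0.66 ± 0.20, 0.43 ± 0.20 and 0.38 ± 0.20 for the other. 5 of the 6 gaps exceeded the spot error, the exception being the first probe at 32 h, and the largest was 1.58-fold. At 4 h, 76.7% and 81.5% of the measured probes had a lower ratio. With the other scalings the 4 h ratios ran from 0.15 to 0.54 and from 0.26 to 0.55. The first probe was within the spot error at 4 h with spike-in scaling (0.15) and median scaling (0.19). The hour with the highest level depends on the scale. The signals were highest at 20 h, and the scaled levels were highest at 4 h.

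*Glrx*, glutaredoxin, ran the other way. Its signal was 6897 in the control, 4172 at 4 h, 4379 at 20 h and 3898 at 32 h, so the control stood above all 3 pulsed arrays. The log2 ratio over the control was -0.44 ± 0.20 at 4 h, -0.99 ± 0.20 at 20 h and -1.001 ± 0.20 at 32 h, or 1.36-fold, 1.98-fold and 2.002-fold lower. The levels at 20 h and 32 h differed by 0.014 ± 0.20. The 32 h value was just past 2-fold and the 20 h value just short of it. With the other scalings each was past 2-fold in 2 of 5, between -1.03 and -0.66 at 20 h and between -1.03 and -0.82 at 32 h. The direction was the same in all of them. At 32 h, 1.49% of the measured probes had a lower ratio, and at 20 h 2.12%.

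*Ggt1*, the extracellular transferase, did not rise well above background at any hour. Its signals were 9.54 for the control array, 13.7 at 4 h, 9.15 at 20 h and 11.2 at 32 h, all below the lowest detected signals of 29.7 to 47.3. The less strict flag of the scanner software, positive and significant, was set at 4 h alone. No ratio was taken for it.

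**Figure D2:**
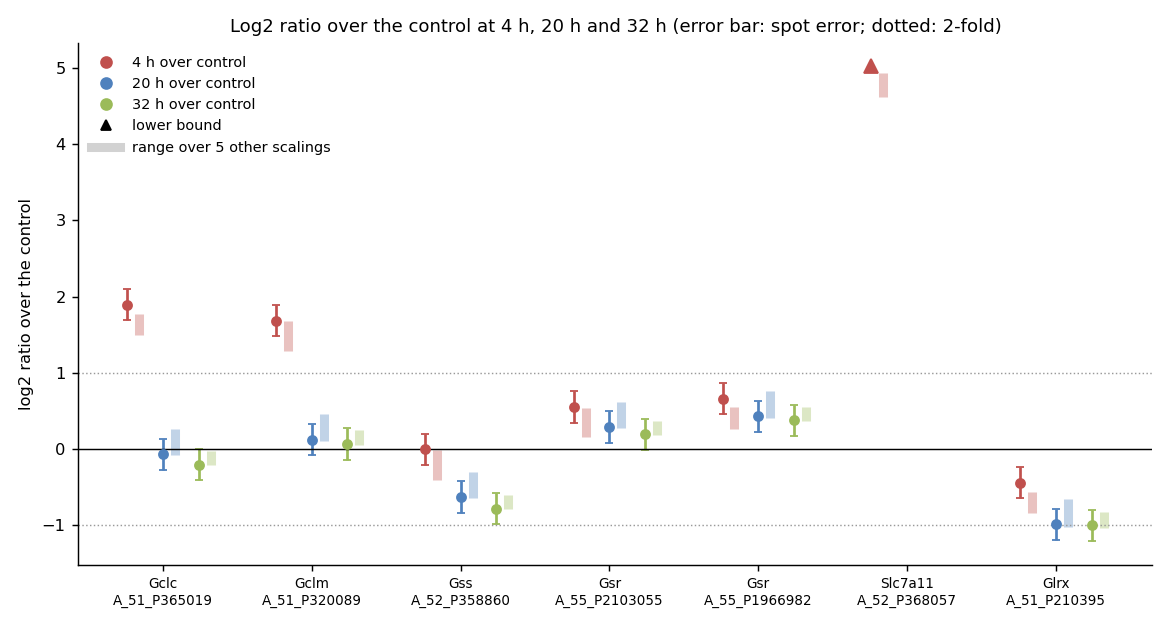
Log2 ratio over the control of the 7 probes with a value at 4 h (red), 20 h (blue) and 32 h (green). Points carry the spot error, the triangle is the lower bound of *Slc7a11* (5.02), pale bars give the range over 5 other scalings and dotted lines mark 2-fold. *Gclc* and *Gclm* are high at 4 h only, *Gsr* stays above 0, and *Gss* and *Glrx* are low at 20 h and 32 h.

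Counted together, 3 of the 7 member probes detected on either array were at least 2-fold higher at 4 h (*Slc7a11*, *Gclc* and *Gclm*), where 11.1% of all 23960 probes were. None was 2-fold lower, against 8.13%. At 20 h none of the 6 detected was 2-fold higher (1.35% of all probes) or lower (3.3%). At 32 h none was higher (2.07%) and 1, *Glrx*, was lower (2.59%). The median over the 6 probes measured on both arrays was 0.60 at 4 h, 0.027 at 20 h and -0.070 at 32 h. Over all measured probes it was 0.17, -0.0034 and -0.0062. With so few probes these are descriptions of the set, and the late medians, within the spot error, changed sign with other settings, to 0.11 at 32 h with no scaling and to -0.067 at 20 h with 1 value per gene. The scaling moves the median of all probes at 4 h from 0.17 to -0.19 (median scaling) or -0.23 (spike-in scaling). The members' median lay 0.43 above that of all probes in both cases and with the 75th percentile, since each shifts every probe alike.

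**Figure D3:**
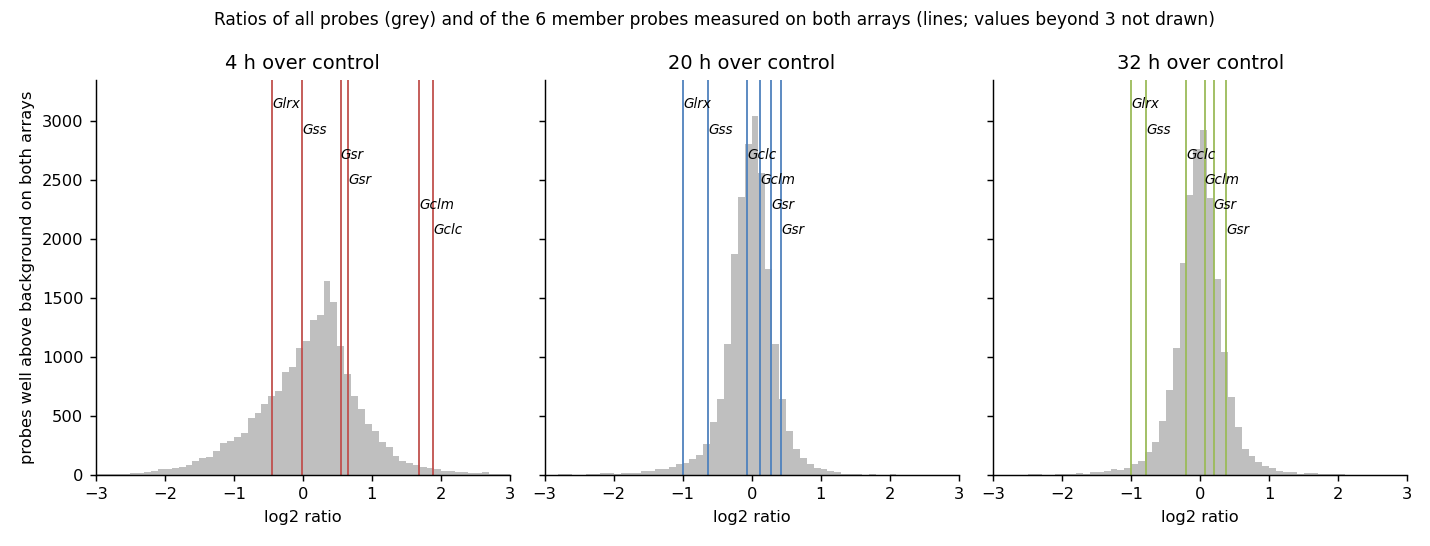
Number of probes (vertical axis) by log2 ratio over the control (horizontal axis, bins of 0.1) at 4 h, 20 h and 32 h, over all probes measured on both arrays (grey), with lines for the 6 member probes measured on both. At 4 h *Gclm* and *Gclc* lie in the right tail, at 1.68 and 1.89, and at 20 h and 32 h *Glrx* and *Gss* lie in the left tail.

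The 20 h and 32 h arrays were compared because the study used them for circadian changes. None of the members differed by 2-fold in this comparison, where 0.88% of all probes were 2-fold higher at 20 h and 1.88% lower. The 6 log2 ratios of 20 h over 32 h lay between 0.014 (*Glrx*) and 0.15 (*Gss*), all within the spot error. All 6 were above 0 (with normexp, *Glrx* was at -0.0035), with a median of 0.074, and over all 20247 measured probes the median was 0.0083 and the robust spread 0.14. Of 399 probes spotted 10 times on the array, 230 were measured on both arrays. The SD of their ratio between spots had a median of 0.046 and a 95th percentile of 0.23, on either side of the error given by the scanner software.

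The neighboring steps of glutathione metabolism were read from 8 lists of 85 genes with 120 probes. At 4 h, 25 of the 106 probes detected on either array were at least 2-fold higher, in 17 genes (11.1% of all probes were), and 4 were at least 2-fold lower, in 3 genes (8.13%). The median of the 101 measured on both was 0.30. At 20 h the counts were 1 higher (1.35% of all probes) and 2 lower (3.3%), of 106 detected. At 32 h they were 1 higher (2.07%) and 3 lower (2.59%), of 105. Between 20 h and 32 h there were none (0.88% and 1.88%). With the scaling by the 75th percentile, none of the probes that were 2-fold higher at 4 h was 2-fold higher later. The 1 higher probe of the late hours was that of *Idh1*.

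Supply of cysteine and glutamate held 6 of the probes that were higher at 4 h, of 16 detected (11.1% of all probes were higher). *Slc3a2*, the heavy chain that SLC7A11 needs at the membrane, gave 13781 in the control, 67137 at 4 h, 19750 at 20 h and 18986 at 32 h. Its log2 ratio was 2.57 at 4 h and fell back to 0.19 at 20 h and 0.28 at 32 h, a course like that of its partner, although *Slc3a2* was well detected in the control. *Cth*, which makes cysteine from cystathionine, was at 2.01 and 1.69 by its 2 probes at 4 h. *Mat2a*, which makes S-adenosylmethionine, was at 1.04 and 0.96. *Slc7a5*, another partner of SLC3A2, was at 1.70 and 1.51 at 4 h, but its probes parted later, with -1.29 and 0.12 at 20 h and -1.64 and 0.10 at 32 h. *Ahcy*, which splits S-adenosylhomocysteine, had 1 of 3 probes 2-fold lower, at -1.17 at 4 h and -1.12 at 32 h.

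Among genes of glutathione breakdown, 1 of 12 detected probes was 2-fold higher at 4 h, a share near the 11.1% of all probes. It was that of *Chac1*, an enzyme that degrades glutathione in the cytosol, with signals of 2604, 7614, 4112 and 5341 and log2 ratios of 1.83, 0.33 and 0.86 at 4 h, 20 h and 32 h. None of the list was 2-fold lower with the scaling by the 75th percentile. Of the 12 detected probes of the transport list, 1 was 2-fold higher at 4 h and 1 lower. These counts were near the shares of all probes (11.1% and 8.13%). The exporter *Abcc5* was higher by 1 of 4 probes (1.09), and its other probes were at 0.83, -0.16 and -0.23. The mitochondrial carrier *Slc25a10* was lower (-1.04). *Abcc1*, an exporter of glutathione and its conjugates, was at 0.33 at 4 h (negative with 2 of 5 other scalings) and fell to -1.31 at 20 h and -1.33 at 32 h, with signals of 4966, 5153, 2517 and 2240.

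Of the other thiol reductants, 2 of 15 detected probes were 2-fold higher at 4 h and 2 lower. These counts were near the shares of all probes (11.1% and 8.13%). *Txnrd1* (thioredoxin reductase) and *Srxn1* (sulfiredoxin) were higher, at 1.77 and 1.67. *Txnip*, the thioredoxin-binding protein, was lower by both probes, at -2.01 and -1.95. The other glutaredoxins, *Glrx2*, *Glrx3* and *Glrx5*, had no probe past 2-fold at any hour. With 1 of 5 other scalings, 1 *Glrx2* probe was at -1.02 at 4 h. None of the 5 detected glutathione peroxidase probes passed 2-fold at 4 h, 20 h or 32 h, and their median at 4 h was -0.27. With 5 probes, none is near the share of all probes (11.1% higher and 8.13% lower at 4 h). In the list of glutathione-dependent detoxification, 4 of 19 detected probes were 2-fold higher at 4 h, where 11.1% of all probes were. They were 3 of *Esd* (S-formylglutathione hydrolase) at 1.16 to 1.53 and 1 of *Ptges* (prostaglandin E synthase) at 2.19. The other *Ptges* probe was at 0.82.

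NADPH, which GSR consumes, is supplied by enzymes of which *Pgd* alone passed 2-fold at 4 h (1.15). It was 1 of 12 detected probes, near the 11.1% of all probes. The 3 probes of *Me1* were just short of 2-fold, at 0.84 to 0.97, and at 0.44 to 0.88 with the 5 other scalings. *Idh1*, the cytosolic isocitrate dehydrogenase, was raised late, with a signal of 360 in the control, 243 at 4 h, 973 at 20 h and 972 at 32 h and log2 ratios of 1.10 and 1.25 at the late hours. Among the regulators, 10 of 15 detected probes were 2-fold higher at 4 h (11.1% of all probes were), and the median over probes was 1.64. Genes with several probes weigh more in this count and median, and the median is the value of a *Mafg* probe. The higher probes belong to *Trib3* (2.44), *Mafg* (1.64 to 1.89 by 4 probes), *Atf4* (1.83 and 1.68), *Mafk* (1.76), *Maff* (1.30) and *Nfe2l1* (1.06). *Nfe2l2*, which encodes NRF2, was at 0.91, and at 0.51 to 0.78 with the 5 other scalings. *Keap1*, the inhibitor of NRF2, was at 0.020, which was -0.38 to -0.043 with the 5 other scalings. No regulator passed 2-fold at 20 h or 32 h with the scaling by the 75th percentile. With the 5 other scalings, 7 of the higher probes at 4 h were not past 2-fold in all. *Mat2a* passed in 0 of 5 (0.63 to 0.91), *Pgd*, *Abcc5*, *Nfe2l1* and 2 of the *Esd* probes in 1 of 5, and *Maff* in 3 of 5. Of the lower probes of the late hours, *Slc7a5* and *Abcc1* at 20 h passed in 4 of 5, and *Ahcy* at 32 h in 3 of 5. Other genes passed 2-fold only with other scalings. At 4 h *Ggt7* and *Gsto2* were lower in 4 of 5, *Ggct*, *Slc25a11*, *Adh5* and *Abcc3* in 3 of 5, and *Glrx2* and *Txnrd2* in 1 of 5. At 20 h *Slc25a40* was higher in 4 of 5, *Hagh* in 2 of 5, and *Cth*, *Mgst3* and *Trib3* in 1 of 5, and *Ggt7* was lower in 1 of 5. At 32 h *Chac1* was higher in 2 of 5 and *Hagh* in 1 of 5.

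**Figure D4:**
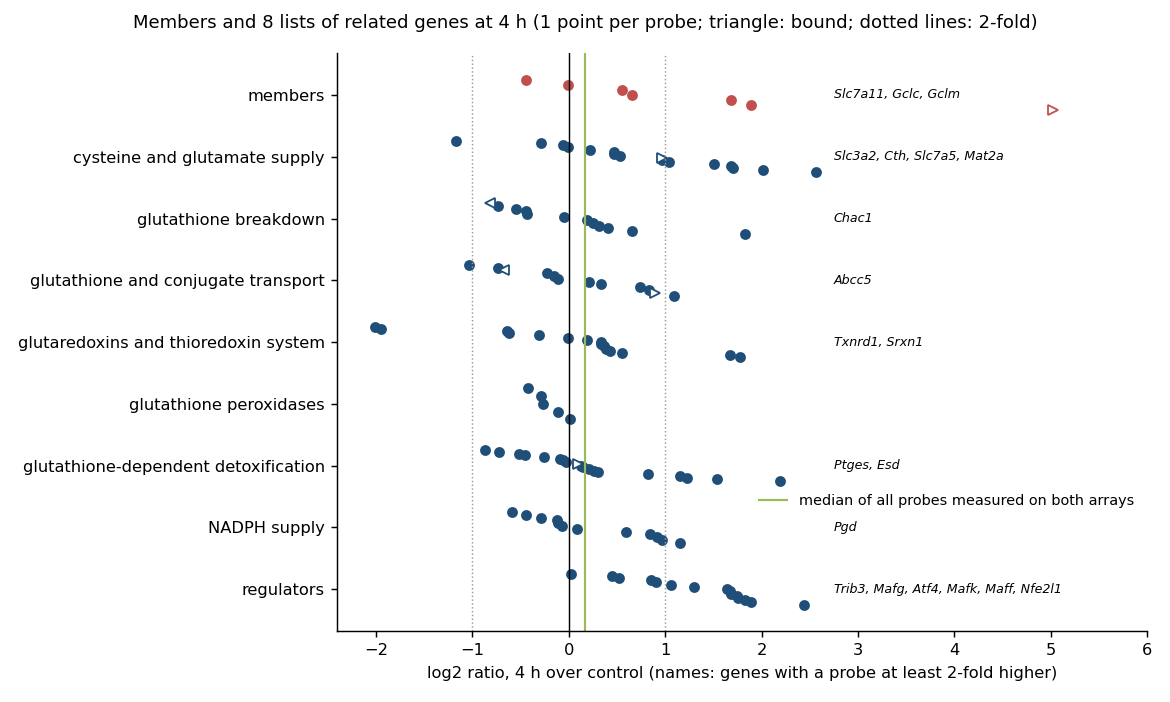
Log2 ratio of 4 h over control (horizontal axis), 1 point per probe, for the members (red) and 8 lists of related genes (blue). Triangles are bounds, dotted lines mark 2-fold, the green line is the median of all measured probes (0.17) and the names are genes with a probe at least 2-fold higher. Regulators (10 of 15 detected probes) and the supply of cysteine and glutamate (6 of 16) hold most of the higher probes. The glutathione peroxidases hold 0 of 5, near the 11.1% of all probes that were higher.

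Since *Slc7a11*, *Gclc* and *Gclm* were high together at 4 h, their promoters were looked up in RefSeq (GRCm38.p6). The table held 9 promoters of 5 members. *Gclc* and *Gsr* are not among them. The 250 bases before the start of *Slc7a11* (minus strand) and of *Gclm* (plus strand) follow, 5′ to 3′, with matches to the searched motifs in capitals.
Slc7a11, chr3:50443614-50443863: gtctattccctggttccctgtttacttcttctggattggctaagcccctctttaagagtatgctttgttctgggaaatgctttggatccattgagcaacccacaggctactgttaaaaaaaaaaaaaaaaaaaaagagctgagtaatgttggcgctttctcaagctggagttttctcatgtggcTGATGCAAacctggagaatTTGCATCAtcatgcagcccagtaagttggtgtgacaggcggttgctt
Gclm, chr3:122245307-122245556: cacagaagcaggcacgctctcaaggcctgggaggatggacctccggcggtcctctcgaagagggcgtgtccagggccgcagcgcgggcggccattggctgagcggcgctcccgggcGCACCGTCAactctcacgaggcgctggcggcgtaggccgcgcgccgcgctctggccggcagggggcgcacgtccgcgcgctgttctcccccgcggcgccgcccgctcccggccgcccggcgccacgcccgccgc

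On both strands of the 300 bases around each start, 5 motifs were searched. The *Slc7a11* promoter held the C/EBP-ATF element TGATGNAA in both orientations, as TGATGCAA 66 bases and as TTGCATCA 47 bases before the start. Of 32851 mouse promoters, 3.97% held this element and 0.070% (23 promoters) held it at least 2 times. The *Gclm* promoter held the core of the antioxidant response element, TGACNNNGC, on the opposite strand 134 bases before the start (GCACCGTCA). This core was in 12.4% of all promoters. It was also in 3 of the 4 promoters of *Ggt1*, the gene that was not detected. The 2 overlapping promoters of *Glrx* shared 1 AP-1 element (TGACTCA, in 5.2% of promoters), and 1 promoter of *Ggt1* held the E-box CACGTG (7.15%). The promoter of *Gss* held no match, and the heat shock element pair GAANNTTC (7.86%) was in no promoter of the 5 members. AP-1 letters can form part of the antioxidant core, but no 2 matches in these promoters overlapped.

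The search took the 14965 probes detected on all 4 arrays whose gene name is a RefSeq symbol other than a member. Those with the 3 log2 ratios over the control nearest to each member were listed, by Euclidean distance. For *Gclm* these were *Mafg* (distance 0.066), *Gt(ROSA)26Sor* (0.083) and *Rlim* (0.089). *Mafg* stood at 1.75, 0.11 and 0.045 at 4 h, 20 h and 32 h. For *Gclc* they were *Gm3727* (0.071), *Gmeb1* (0.099) and *Gm5797* (0.12). For *Gss* they were *Whrn* (0.052), *Klhl5* (0.064) and *Prmt3* (0.075), and for the brighter probe of *Gsr* *3110009E18Rik* (0.048), *Rhob* (0.050) and *Pex5* (0.057). For *Glrx*, *Ramp3* was at 0.11 and *Pitpnc1* at 0.15. The likeness rests on 3 ratios with 1 shared control array, so it describes these arrays only. *Slc7a11* and *Ggt1* were not detected on all arrays and have no such list.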

How the data were processed

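Total RNA of NIH-3T3:Per2-Luc fibroblasts was labeled with Cy3 and hybridized to 4 one-color Mouse GE 4x44K v2 arrays (Agilent) on 1 slide, 1 per condition. The authors deposited intensities per spot from Agilent Feature Extraction 10.7.3.1, background-subtracted by that software, with mm9 probe positions. Their table of the whole series differed from these only by 1 factor for each array.

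Spots with a feature outlier flag (125 to 161 an array, none of them a member) were left out, log2 intensities were averaged per probe and each array was set to its 75th percentile. Detection required the flag "well above background" on 50% or more of the spots. Ratios need detection on both arrays. With detection on 1, a bound was computed against the lowest detected signal of the dim array, or the dim signal itself if higher. The threshold was 2-fold. The precision is limited by the number of arrays.

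The members, lists and rules for named genes were chosen with earlier results of these data known. Named genes were every member, list genes with a probe past 2-fold against the control, and the 3 nearest probes by likeness. A list gene and a probe of the likeness search are not reported here. *Nfe2l2*, *Keap1*, *Me1*, the other glutaredoxins and the list genes past 2-fold only with other scalings were named after their values were seen. The alternatives were other scalings, normexp with an offset of 50 (limma 3.58.1, R 4.3.3), other detection rules, flagged spots kept, 1 value per gene, thresholds of 1.5-fold and 3-fold and the deposited table. Calculations used Python 3.11.15, numpy 2.4.6 and pandas 2.3.3, tested on simulated data. The comparison method that the methods name (SAM, two-class paired) was not used here, since each condition has 1 array.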

Additional observations from a re-analysis of the deposited data

Results flagged for a closer look

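*Gclc* stood on opposite sides of the control at 4 h and 32 h. Its log2 ratio was 1.89 ± 0.20 at 4 h and -0.21 ± 0.20 at 32 h, the latter only just past the spot error. With no scaling the 32 h value was -0.027. The difference was not tested, with 1 array per condition and 1 control shared by both.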

How the results depend on the processing

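No paired analysis was possible because each condition has 1 array and no test was run. No ratio or median of the members that was larger than its spot error changed direction. Of 112 comparisons of a count or median with an alternative, 96 stayed within 1.5 times the count or within the spot error. The median of the members at 4 h (0.60) moved to 0.24 by median scaling, to 0.20 by spike-in scaling, to 0.32 if left unscaled, and to 0.21 by spike-in scaling without the 1 spike-in probe farthest from the others, an alternative chosen after seeing the data. The median at 20 h (0.027) moved to 0.36 with no scaling and -0.20 with no detection filter. The count at 32 h (1, *Glrx*) was 0 with median, spike-in or no scaling, with spike-in scaling without 1 probe, with normexp and at 3-fold, and 2 at 1.5-fold. The count at 20 h (0) was 1 with quantile normalization and with a 75th percentile taken over probes that every array detected, and 2 at 1.5-fold. Of 250 values of single probes, 36 moved by more than the spot error, all but 2 of them under a scaling by the median, by the spike-ins or by nothing. The other 2 were the *Slc7a11* value at 4 h, 3.81 with normexp and 7.34 with no detection filter. With 1 spot per probe and array, a change in a dim probe such as *Ggt1* could not be measured.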

Other observations

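The probes of *Acss2*, an acetyl-CoA synthetase gene, lie within 3 kb of the *Gss* probe on chromosome 2 (mm9) and ran the other way at the late hours. Probe A_55_P1988789, 1.54 kb away, had a log2 ratio over the control of -0.55 at 4 h, 1.14 at 20 h and 1.53 at 32 h, and probe A_55_P1988795, 2.46 kb away, had -0.12, 0.47 and 0.82. *Gss* itself was at -0.0064, -0.63 and -0.78. Near *Gclm*, the probe of *Dnttip2*, 24.2 kb away, was at 1.09 at 4 h and -0.12 and -0.14 later, and near *Glrx*, that of *Ell2*, 78.0 kb away, was at 1.59, -0.35 and -0.67. These neighbors were chosen after their values were seen among all probes within 100 kb of the members.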
